A study of Mus musculus with 4 samples.

Results

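The genes that flank Stmn1 on mouse chromosome 4 were compared between STMN1-/- and STMN1+/+ mouse embryo fibroblasts (MEFs). Members were the array probes that are not controls and whose coordinate lies on chromosome 4 within 10 Mb on either side of position 133850000 of mouse build mm7, with the probes of Stmn1 itself left out. This window runs from 123850000 to 143850000 and holds 549 of the 41174 probes of the array, which carry 319 gene symbols. The rule uses position alone, although the window was proposed with earlier results of these data known. Total RNA of cultured C57BL/6 MEFs was labelled with Cy3 or Cy5, and RNA of both genotypes was hybridised to each of 4 Agilent arrays. STMN1-/- RNA was in Cy3 on arrays 1 and 2 and in Cy5 on arrays 3 and 4, which balances the dyes in a mean over all 4. STMN1-/- cells lack both copies of Stmn1, in which a neomycin cassette replaced part of the gene, STMN1+/+ cells carry both intact copies, and both came from embryos of matings between STMN1+/- mice. The sources do not say how many embryos or cultures stand behind the 4 arrays, so the p-values reflect how far these arrays scattered, and that scatter may be technical only.

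Stathmin, the product of Stmn1, binds tubulin and destabilizes microtubules. A gene that is disrupted by targeting in embryonic stem cells is inherited together with the DNA on either side of it. Embryos that are homozygous for the disrupted copy therefore also share the flanking chromosome segment of the targeted cells, and the inserted cassette itself can influence its neighbours. For this reason linked genes are commonly examined next to a knockout. Whether the flanking DNA differed between these MEFs was not measured, and its part in any value below was not tested.

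The probes of the genes nearest to Stmn1 that passed the test, and of a neighbouring gene whose probes gave unequal values, are shown by the first 30 of their 60 bases, 5′ to 3′, because every ratio below is read from such a probe. All coordinates are of build mm7 on chromosome 4.
Zfp593, probe A_51_P106474, chr4:133621786-133621841, minus strand: gatggagttctcacaagaacatcttttgtg
Zfp593, probe A_52_P262914, chr4:133623111-133623170, minus strand: gccaagctgagagtgtgtattttggatttc
Pdik1l, probe A_52_P18229, chr4:133653714-133653773, minus strand: gggatactttgtcattctgatgaagtaagt
Pdik1l, probe A_52_P361219, chr4:133656670-133656729, minus strand: gttagattccactttctaagggtttaggtt
Trim63, probe A_52_P517224, chr4:133707547-133707606, plus strand: ccaaaacgtcacaggacacttttctacgtt
Pafah2, probe A_51_P345896, chr4:133805707-133805766, plus strand: gtgcatttcccacgtcccacacacatgctt
Paqr7, probe A_51_P430973, chr4:133886956-133887015, plus strand: tcactgtttcctggggctccaggctttaga
Aunip, probe A_52_P56397, chr4:133902184-133902243, plus strand: taatcgggttatcaggcactagttctagat
Selenon, probe A_51_P358152, chr4:133916477-133916536, minus strand: aatcatgtcttcttatcagactaaacagag

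Genes around Stmn1 were both up- and down-regulated in STMN1-/- MEFs. Of 443 tested window probes, 62 were higher and 49 were lower in STMN1-/- RNA, which together make up 25.1%, beside 22.4% of all 27648 tested probes and 11.2% in either direction alone (limma, adjusted p under 0.05). Elsewhere in the genome 6043 of 27033 probes were called, also 22.4%, and on the rest of chromosome 4 the share was 20.6%. The window share is near the background, and 2 of the other 19 chromosomes had a higher share, within a range of 18.3% on chromosome 17 to 26.1% on chromosome 1. The count of window probes called is therefore not a result about the window. Its median log2 ratio was 0.02 and its median absolute log2 ratio 0.18, beside 0.17 elsewhere. With each gene represented by its brightest tested probe, 48 of 268 window genes were higher and 33 were lower, 30.2% in all, beside 25.5% of all 15566 tested genes, of which 13.2% were higher and 12.3% lower. Changes of at least 2-fold were found for 14 window genes, or 5.22%, 9 of them higher and 5 lower, beside 3.3% of all tested genes, 1.7% higher and 1.6% lower. All 111 called window probes had the same sign on every array with a value. Signals themselves were brighter in the window, with a median of 2743 beside 1785 elsewhere, and 81.1% of its probes were well above background on at least 1 array, beside 67.4% elsewhere.

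The arrays separated by dye orientation. Log2 ratios of STMN1-/- over STMN1+/+ correlated across all probes with an r of 0.689 to 0.703 between arrays of the same orientation and of 0.445 to 0.489 between arrays of opposite orientation. Stmn1 itself was lower in STMN1-/- RNA on 4 of 4 arrays at both of its probes, with a log2 ratio of -2.16 ± 0.06 (SE) at A_52_P319161 and of -0.39 ± 0.07 at A_51_P495641. The study describes the Stmn1 probe of this array as also matching a region of another chromosome, so a remaining signal need not come from Stmn1. Which of these probes is meant, and where they lie relative to the disrupted part of the gene, was not analysed here.

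Against distance, the share of called probes was highest close to Stmn1. It was 33.3% of 57 probes within 1 Mb, 29.9% of 97 probes from 1 to 2.5 Mb, 21.0% of 105 probes from 2.5 to 5 Mb, 21.9% of 105 probes from 5 to 7.5 Mb and 22.8% of 79 probes from 7.5 to 10 Mb. The shares beyond 2.5 Mb thus lie at the background of 22.4%. The pattern was weaker when each gene was counted once, with 32.5% of 40 genes within 1 Mb, 33.3% of 57, 26.2% of 61, 28.6% of 63 and 31.9% of 47 in the same order outward, beside 25.5% of all genes. Higher and lower probes were balanced close to Stmn1, with 10 higher and 9 lower within 1 Mb and 14 higher and 15 lower from 1 to 2.5 Mb. The distance classes also differed in brightness, with median probe signals of 4907, 4226, 3636, 1475 and 2483 outward. The part of brightness in the shares called was not tested. Across the 443 probes, which share arrays and in part genes, the absolute log2 ratio had a Spearman correlation of -0.11 with distance, a weak relation that is given as a description only. No test was made between the distance classes, since probes on the same arrays are not replicates of a distance.

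The sides of Stmn1 differed in where called probes lay. Toward the lower coordinate the share was 31.0% of 29 probes within 1 Mb and 18.2% of 55 probes from 1 to 2.5 Mb. Toward the higher coordinate it was 35.7% of 28 probes within 1 Mb and 45.2% of 42 probes from 1 to 2.5 Mb. This last stretch also had the largest median absolute log2 ratio of the classes that were formed, 0.40, beside 0.15 for the same distance on the other side. Among its 19 called probes are those of Myom3, Srsf10, Pnrc2, Cnr2, Fuca1, Pithd1, Eloa, Rpl11, Asap3, Tcea3, Ephb2, C1qc and C1qa and of an unnamed transcript, and Fuca1, Eloa, Rpl11 and Tcea3 contributed more than 1 probe each. The stretch was singled out after its values were seen. The outermost class on the higher side, with 6 of 15 probes called, holds too few probes to carry a trend. With normexp background correction the share was 26.2% in the 1 to 2.5 Mb stretch of the higher side and 21.4% within 1 Mb of it, while fewer probes passed in every class.

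**Figure D1:**
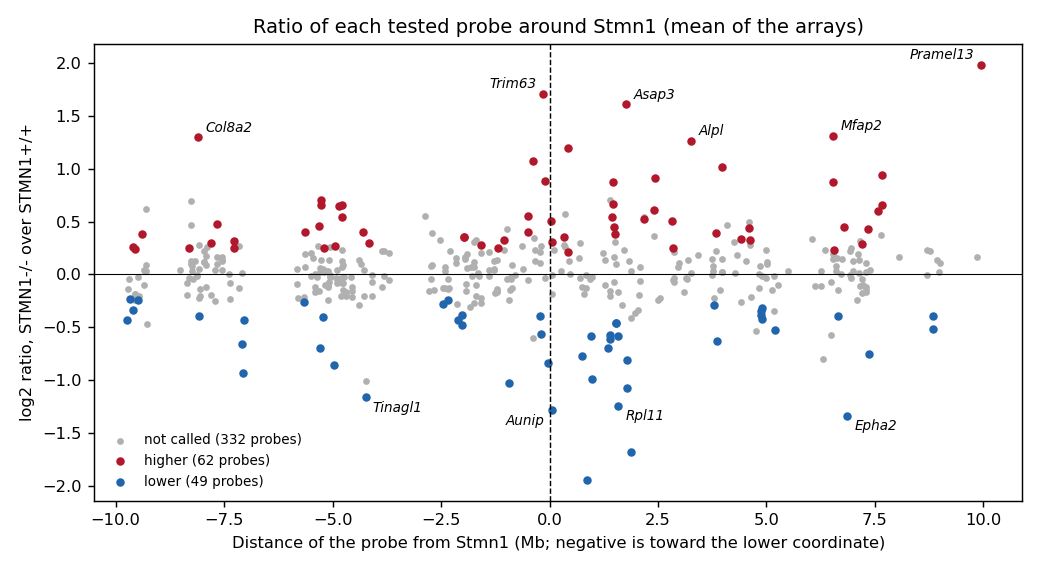
Log2 ratio of STMN1-/- over STMN1+/+ for the 443 tested window probes (mean of the arrays, vertical axis) against their distance from Stmn1 in Mb (horizontal axis), with probes called higher in red, called lower in blue and not called in grey. Called probes of both signs lie along the whole window, with Trim63 at 1.71 and Aunip at -1.29 next to the dashed line that marks Stmn1.

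**Figure D2:**
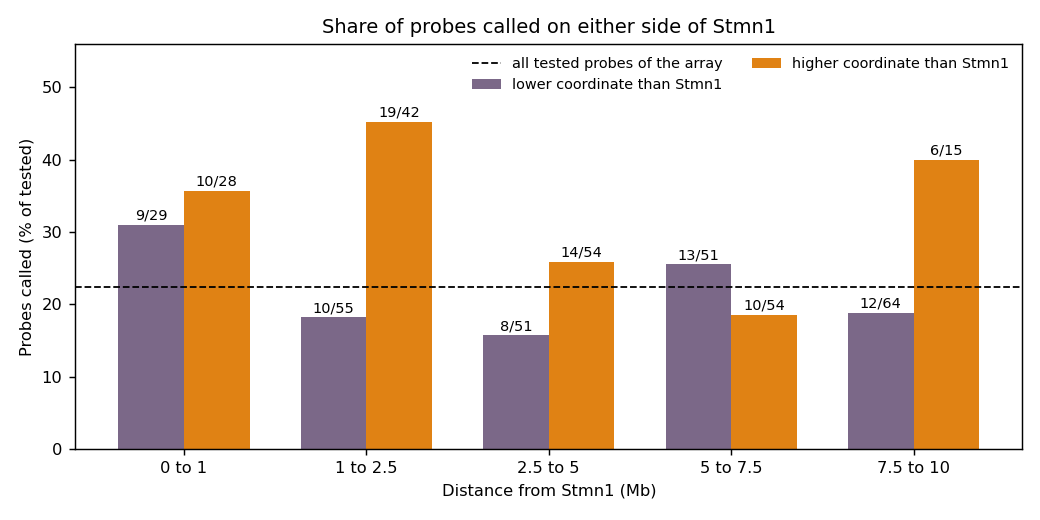
Share of tested probes called in 5 distance classes (bars, percent of tested probes, with called and tested numbers above them) on the lower and the higher coordinate side of Stmn1, with the 22.4% of all tested probes as a dashed line. The tallest bar is the 1 to 2.5 Mb class of the higher side, where 19 of 42 probes were called, while on the lower side the same class lies at 18.2%.

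The genes next to Stmn1 included changes in both directions. On the lower coordinate side the nearest measured gene was Pafah2, which encodes an intracellular phospholipase that hydrolyses platelet-activating factor and oxidized phospholipids, 44.3 kb from the reference position. Its processed signals on arrays 1 to 4 were 8685, 9631, 11970 and 12526 for STMN1-/- RNA and 16860, 17353, 21491 and 20174 for STMN1+/+ RNA. The genotypes did not overlap, and Pafah2 was down-regulated 1.78-fold (log2 ratio -0.83 ± 0.07, adjusted p = 0.0023). Aunip, whose product binds Aurora kinase A and ninein at centrosomes, lies 52.2 kb to the other side. Its signals were 4982, 6186, 6025 and 5673 for STMN1-/- RNA and 12433, 15999, 13361 and 14072 for STMN1+/+ RNA. Every STMN1-/- signal lay below every STMN1+/+ signal, and the gene was down-regulated 2.44-fold (-1.29 ± 0.06, adjusted p = 0.00081). Between both lies Paqr7, a membrane progestin receptor gene, at 37.0 kb. Its log2 ratios were 0.71, 0.66, 0.33 and 0.33, an up-regulation of 1.42-fold (adjusted p = 0.0204), although its signals overlapped between genotypes when all arrays were pooled. Pafah2, Paqr7 and Aunip thus passed the test as 3 consecutive measured genes around Stmn1, with opposite signs.

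Trim63, which encodes a ubiquitin ligase of striated muscle (MuRF1), lies 142 kb to the lower side and had the largest change among the nearest genes. STMN1-/- signals were 240, 257, 364 and 381 and STMN1+/+ signals 63.0, 142, 92.1 and 90.2, without overlap. The log2 ratios were 1.93, 0.85, 1.98 and 2.08, so that array 2 was low, and the gene was up-regulated 3.28-fold (adjusted p = 0.00846). Its signal exceeded background clearly on 1 array for STMN1+/+ RNA and on 4 for STMN1-/- RNA, and the other Trim63 probe of the window was too dim to be tested. Selenon, a selenoprotein gene of the endoplasmic reticulum, was up-regulated 1.24-fold (ratios 0.24, 0.41, 0.25 and 0.34, adjusted p = 0.0227). Zfp593, a zinc finger gene, was down-regulated 1.31-fold at its brighter probe (ratios -0.46, -0.42, -0.37 and -0.33, adjusted p = 0.0103). The other 6 of the 12 nearest genes did not pass the test at their brightest probe, where 25.5% of all tested genes were called. Among these 6, log2 ratios were 0.11 for Grrp1, 0.27 for the kinase gene Pdik1l, -0.03 for the heparan sulphate glycosyltransferase gene Extl1, -0.01 for Mtfr1l and 0.23 for the Golgi mannosidase gene Man1c1. Pdik1l and Extl1 each had a dimmer probe that was called, at -0.56 and 0.88. Mtfr1l, 54.2 kb from the reference position and next to Aunip, had signals of 13451 to 17528 for STMN1-/- RNA and of 13175 to 19126 for STMN1+/+ RNA, which overlapped fully. With normexp, Pafah2 and Aunip kept log2 ratios of -0.81 and -1.12 and their calls, as did Paqr7 and Zfp593, while Trim63 had 0.32 (adjusted p = 0.0808) and Selenon 0.29 (adjusted p = 0.0682). Paqr7 lost its call without 3 of the arrays in turn, Selenon without each of the 4 and Zfp593 without 1 (highest adjusted p 0.0797, 0.092 and 0.053).

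**Figure D3:**
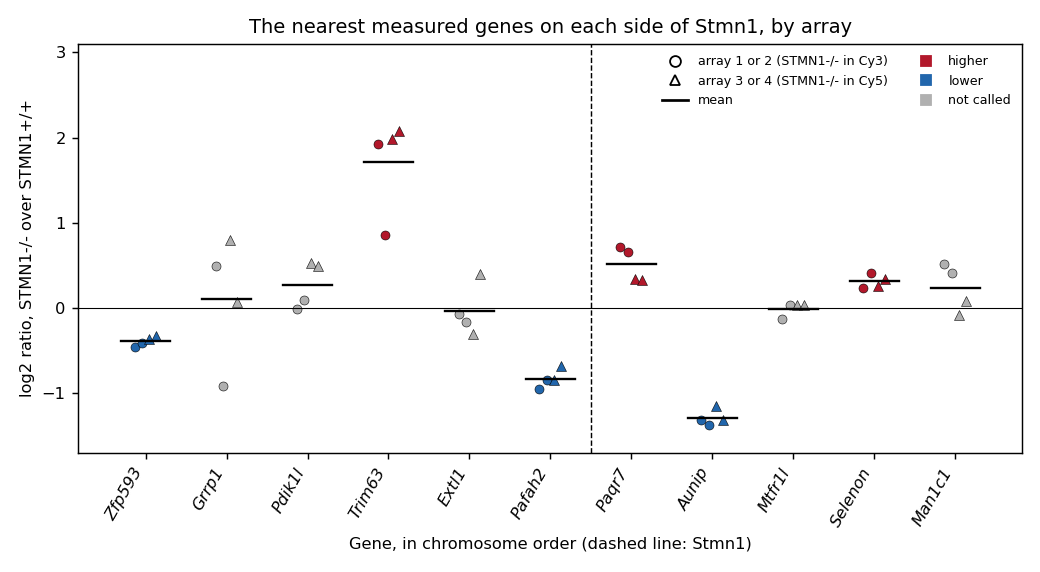
Log2 ratio of STMN1-/- over STMN1+/+ on each array for the nearest measured genes on each side of Stmn1 in chromosome order, with circles for arrays 1 and 2, triangles for arrays 3 and 4, and a black bar at the mean. Pafah2 and Aunip lie below 0 on every array and Trim63 above 0, with its array 2 value of 0.85 apart from the other arrays.

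Within the whole window, the largest up-regulated genes were spread over both sides and from the nearest to the farthest position. Asap3, which encodes a GTPase-activating protein for Arf that takes part in cell migration, lies 1.77 Mb to the higher side. Its signals were 2149, 2394, 2409 and 2405 for STMN1-/- RNA and 645, 760, 788 and 886 for STMN1+/+ RNA. No value overlapped, and Asap3 was up-regulated 3.05-fold (ratios 1.74, 1.66, 1.61 and 1.44, adjusted p = 0.0008). Mfap2, which encodes a microfibril protein of elastic matrix, had signals of 75049 to 82752 against 30510 to 32719 and was up-regulated 2.48-fold (1.31 ± 0.06, adjusted p = 0.0008). Its other probe read 1.04, 1.09, 0.68 and 0.70 and was also called. Col8a2, a short-chain collagen gene, was up-regulated 2.46-fold (ratios 1.35, 1.44, 1.28 and 1.12). Alpl, the tissue-nonspecific alkaline phosphatase of bone-forming cells, was up-regulated 2.41-fold (ratios 1.29, 1.00, 1.39 and 1.39). The mean signals of Alpl were 995 and 416.

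Rhd, the Rh blood group gene, lies 425 kb from the reference position and was up-regulated 2.30-fold (signals of 366 to 480 against 154 to 271). Cd52, which encodes a lipid-anchored surface antigen of lymphocytes, was up-regulated 2.10-fold (ratios 1.51, 0.68, 1.10 and 0.99). Camk2n1, an inhibitor of CaM kinase II, was up-regulated 2.03-fold, Kazn, which encodes the desmosome-associated protein kazrin, 1.92-fold, C1qa, a chain of complement C1q, 1.88-fold, and Fuca1, a lysosomal fucosidase, 1.84-fold. Their STMN1-/- and STMN1+/+ signals did not overlap in any of these genes. Pramel13, a member of a multigene family at 9.95 Mb, read 1.82, 2.22, 2.59 and 1.31, but no array had a STMN1+/+ signal well above background and 2 had such a STMN1-/- signal. It thus entered the test only through the genotype in which it is higher, and the size of its change and its rank are uncertain. With normexp its log2 ratio was 0.21 (adjusted p = 0.134), and signal from related family members cannot be told apart. All 12 of these largest increases kept their call without each array in turn, with a highest adjusted p of 0.0402. With normexp, which shrinks ratios of dim probes, 5 of them (Asap3, Col8a2, Fuca1, Kazn and Mfap2) kept the call and all 12 the sign.

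The largest down-regulated genes were led by Epha2, an Eph receptor tyrosine kinase that binds ephrin-A ligands. Its signals were 29106, 28362, 26645 and 30467 for STMN1-/- RNA and 66583, 70762, 73834 and 78366 for STMN1+/+ RNA. It was down-regulated 2.53-fold without overlap (-1.34 ± 0.07, adjusted p = 0.00083). Tinagl1, which encodes a matricellular protein of basement membranes, had signals of 6432, 7088, 6412 and 7374 against 14309, 14947, 15001 and 16910 and was down-regulated 2.24-fold (ratios -1.15, -1.08, -1.23 and -1.20). Rpl11, a protein of the large ribosomal subunit, read -1.71, -1.51, -1.03 and -0.74 at its brighter probe and -0.69, -0.69, -0.45 and -0.49 at the other. Both probes were called lower, with smaller sizes on arrays 3 and 4. Ribosomal protein genes have many near-identical processed copies, so the size of this change is uncertain.

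Aunip, described above, ranked next to Epha2, and the others included Kdf1, a keratinocyte differentiation gene, the zinc finger gene Zbtb8b, Pafah2, Tcea3, a transcription elongation factor gene, Clic4, which encodes an intracellular chloride channel protein, Ctrc, a pancreatic protease gene, and Myom3, a gene of the muscle M-band. Clic4 was down-regulated 1.70-fold (ratios -0.83, -0.96, -0.67 and -0.61) with signals of 39527 to 42088 against 63804 to 77368. Tcea3 was down-regulated 1.75-fold (ratios -0.87, -0.52, -0.92 and -0.94) and Zbtb8b 1.82-fold (ratios -1.08, -0.75, -1.02 and -0.59). Kdf1 and Ctrc had no STMN1-/- signal well above background and entered the test only through STMN1+/+ RNA, so the size of their changes is uncertain. Without 1 array, the calls of Kdf1, Ctrc and Myom3 were lost in at least 1 of the 4 fits (highest adjusted p 0.122, 0.0546 and 0.0585), and with normexp Aunip, Clic4, Epha2, Pafah2, Rpl11 and Tinagl1 kept the call. A pair of probes without a gene symbol fell further than any named gene. A_52_P135424, at chr4:134722106-134722165 and 872 kb from the reference position, had signals of 1329, 1312, 1201 and 1428 for STMN1-/- RNA and 4291, 5060, 4980 and 6095 for STMN1+/+ RNA. Its log2 ratio was -1.95 ± 0.09 (adjusted p = 0.0008). The array's annotation describes it as a transcript for serine/arginine repetitive matrix 1, while the probe of the gene of that name, Srrm1, read -0.01. A_52_P834965, an unclassified transcript at 1.88 Mb, had a log2 ratio of -1.68 and was well above background in STMN1-/- RNA on 1 array.

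**Figure D4:**
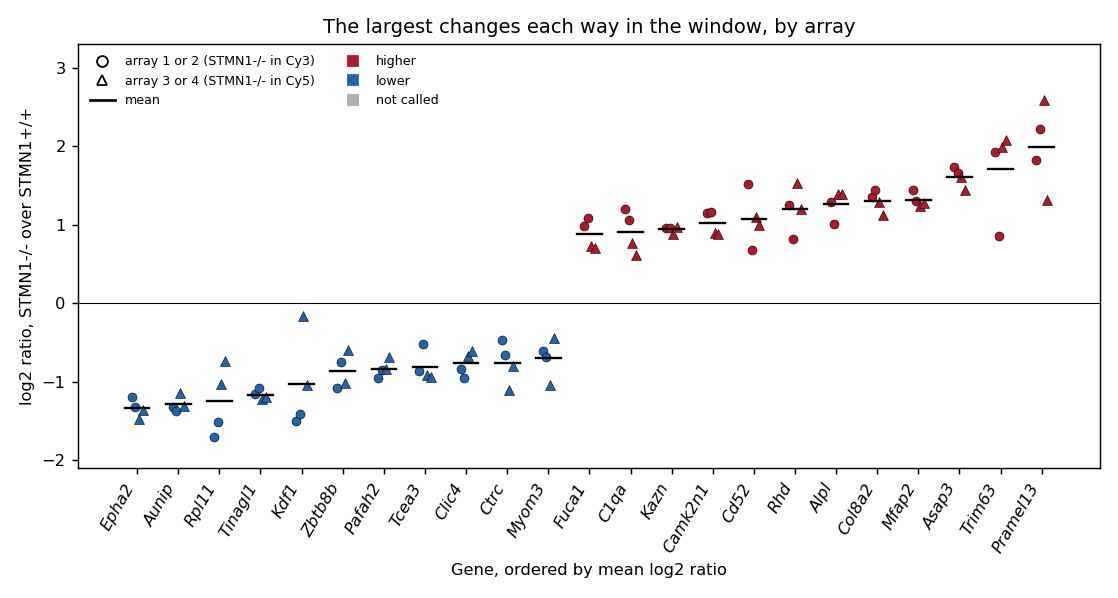
Log2 ratio of STMN1-/- over STMN1+/+ on each array for the named window genes with the largest decreases (blue) and the largest increases (red) that passed the test with the same sign on every array, ordered by mean ratio, with circles for arrays 1 and 2 and triangles for arrays 3 and 4. The mean ratios span -1.34 for Epha2 to 1.99 for Pramel13, where STMN1+/+ RNA gave no signal well above background, and Trim63, Kdf1 and Pramel13 vary most between arrays.

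Grouped by role, window genes of the extracellular matrix and cell surface changed in both directions. Of 9 measured genes on the matrix and cell surface list, 5 were up-regulated, 2 were down-regulated and 2 did not pass. Over all tested genes, 13.2% were higher and 12.3% lower. The median log2 ratio of the list was 0.33, beside 0.00 over all tested genes. Besides Mfap2, Col8a2 and Alpl, the fibril-associated collagen gene Col16a1 was higher by 0.40 (adjusted p = 0.0482) and Nbl1, which encodes a secreted BMP antagonist, by 0.33 (adjusted p = 0.0147). Col16a1 read 0.59, 0.61, 0.18 and 0.22 on arrays 1 to 4, and its other probe read 0.10 and was not called. The lists by role were not tested against other genes. Tinagl1 fell, as did Pdpn, which encodes the membrane mucin podoplanin, with -0.39 and -0.51 at its 2 probes, both called. The syndecan gene Sdc3 read 0.22 (adjusted p = 0.113). Outside the window, fibroblast markers were also higher in STMN1-/- RNA. All 10 of the list (Col1a1, Col1a2, Col3a1, Vim, Fn1, Thy1, Pdgfra, Pdgfrb, S100a4 and Postn) were well above background on every array in both genotypes, 8 were higher, Vim was lower by 0.28 and S100a4 read -0.61 without passing. Their summed signal on arrays 1 to 4 was 4290795, 4600679, 5930806 and 6729348 in STMN1-/- RNA. In STMN1+/+ RNA it was 4256857, 4475972, 3840893 and 3956985. The sums were thus close on arrays 1 and 2 and lay apart on arrays 3 and 4, which have the opposite dye orientation. S100a4 and Col1a2 were the brightest members, with mean signals of 1484580 and 1361329 in STMN1-/- RNA and of 2072324.5 and 619167 in STMN1+/+ RNA. Fewer cells of a type and less RNA per cell cannot be told apart in such RNA, and the part of cell makeup in the window's changes was not tested.

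The epithelial connexin gene Gjb5, which encodes a gap junction subunit, read -0.36, -0.46, -0.64 and -0.24 and was down-regulated 1.34-fold (adjusted p = 0.0233). The endothelial connexin gene Gja4 read 0.01 (adjusted p = 0.922). The call of Gjb5 was lost without 3 of the arrays in turn (highest adjusted p 0.0896) and with normexp (adjusted p = 0.0975). Epithelial markers outside the window were mostly lower too. Of 9 measured, 8 were lower, where 12.3% of all tested genes were lower. Among these 8 were Cdh1 with -3.41, Krt5 with -1.56, Cldn4 with -1.39 and Krt19 with -1.29, and Trp63 read 0.32 without passing. The summed signal of the list was 56782 to 67329 in STMN1-/- RNA and 86788 to 98269 in STMN1+/+ RNA, and 1 of its 10 genes had no signal well above background. Its part in the value of Gjb5 was not tested. The 3 measured peptidylarginine deiminase genes, whose enzymes citrullinate proteins, missed the threshold at log2 ratios of -0.80 for Padi3 (adjusted p = 0.0555), -0.57 for Padi2 (0.0604) and 0.23 for Padi1 (0.0531). Only 1 of the 3 was well above background on every array in each genotype. Padi3 and Padi2 were dim, with mean signals of 48 and 87 in STMN1-/- RNA and of 88 and 127 in STMN1+/+ RNA.

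The Eph receptors in the window moved in opposite directions. Ephb2, a receptor for ephrin-B ligands, had signals of 11168 to 11884 for STMN1-/- RNA against 7559 to 8371 and was up-regulated 1.44-fold (ratios 0.57, 0.58, 0.42 and 0.51, adjusted p = 0.00576), while Epha2 fell as described above. The other 2 receptors of the list had no tested probe. At their brightest probes, 3 of 9 measured genes listed under signalling were up-regulated and none was down-regulated. Over all tested genes, 13.2% were higher and 12.3% lower, or 25.5% called. Wnt4, a secreted Wnt ligand, rose 1.42-fold (adjusted p = 0.00776), Casp9, the initiator caspase of the mitochondrial pathway, 1.35-fold (adjusted p = 0.00763) and Sesn2, a stress-induced regulator of mTORC1, 1.27-fold (adjusted p = 0.0183). The 6 others ranged from -0.36 for the serotonin receptor gene Htr1d to 0.32 for the opioid receptor gene Oprd1 at their brightest probes. Among them, Rcan3 read -0.04 at its brightest probe, but its other probe read -0.59 and was called lower. Wnt4 kept its call with normexp and without each array, whereas Casp9 had an adjusted p of 0.104 with normexp and Sesn2 lost its call without 3 of the arrays in turn (highest adjusted p 0.0786).

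Of 8 measured complement C1q and leukocyte genes, 5 were up-regulated and none was down-regulated, beside 13.2% and 12.3% of all tested genes, with a median log2 ratio of 0.58 beside 0.00. The C1q chains are encoded side by side 2.4 Mb from the reference position. C1qa had signals of 1421 to 1768 against 748 to 1063 (adjusted p = 0.00753) and C1qc 0.60, 0.65, 0.58 and 0.60 (adjusted p = 0.00275), while C1qb read 0.61, 0.47, 0.31 and 0.08 and missed the threshold (adjusted p = 0.0589). All 3 chains were thus higher on every array. Lck, a kinase of T-cell receptor signalling, was up-regulated 1.56-fold (adjusted p = 0.0306), Cnr2, the cannabinoid receptor of immune cells, read 0.55 near background (adjusted p = 0.0315), and Cd52 rose as described above. Lck lost its call without 3 of the arrays in turn (highest adjusted p 0.0904). With normexp C1qc kept its call, whereas C1qa, Cd52 and Lck had adjusted p-values of 0.0624, 0.0632 and 0.153. Laptm5 and Ptafr read -0.05 and 0.20. General macrophage and leukocyte markers outside the window changed in both directions. Of 9 measured, Aif1 and Csf1r were higher by 1.00 and 0.28, Cd14 and Cd68 were lower by log2 ratios of -0.48 and -0.28, and 5 did not pass. Their summed signal was 132733 to 154709 in STMN1-/- RNA and 158505 to 180237 in STMN1+/+ RNA. Most of this sum came from Lyz2, which did not pass the test, with mean signals of 129418 and 151618.5.

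Of the 4 window genes of striated muscle, Trim63 was higher, Myom3 was lower (ratios -0.61, -0.69, -1.04 and -0.44, adjusted p = 0.0137), and Hspb7 and Pax7 read -0.04 and -0.10. Beside them, 4 of 8 measured muscle markers outside the window were higher and none was called lower. The higher ones were Myh3 by 0.62, Myog by 0.37, Tnni1 by 0.35 and Actc1 by 0.33. The other 4, Acta1, Myod1, Tnnt2 and Des, read 0.16, 0.03, -0.21 and -0.31 without passing. All counts in this paragraph stand beside 13.2% of all tested genes higher and 12.3% lower, or 25.5% called. Of 17 genes listed as metabolic, 3 were up-regulated, among them Fuca1 and Pithd1 (by 0.38), which is not itself a metabolic enzyme. Pafah2 was down-regulated and 13 did not pass, with a median of -0.01 for the list. Of endothelial markers outside the window, 2 of 7 were higher, Vwf by 0.89 and Emcn by 0.54. Another 2, Cd34 and Kdr, were lower, with -1.15 and -0.72. The summed signal was 12316 to 13734 in STMN1-/- RNA and 23466 to 25870 in STMN1+/+ RNA. Most of this sum came from Cd34, with mean signals of 9515 and 21081.

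For the lists of general cellular roles, counts stand beside the 25.5% of all tested genes that were called. Of 12 argonaute and RNA-binding genes, Rpl11 alone passed at its brightest probe. Ago1, Ago3 and Ago4, which encode argonautes that load small RNAs, read 0.11, -0.22 and 0.26 there. The Ago4 value rests on arrays 1 and 3 alone, which read 0.61 and -0.08. The dimmer Ythdf2 probe was called lower at -0.28, as was 1 of 4 Ago3 probes, which ranged from -0.40 to -0.14. Of 13 transcription factors, the POU factor gene Pou3f1 read -0.43 and the metal-responsive factor gene Mtf1 -0.34, both called, and 11 did not pass. Of 11 chromatin genes, Hmgn2, a nucleosome-binding protein gene, was higher by 0.40 and the Polycomb gene Phc2 was lower by a log2 ratio of -0.26, while Arid1a, Kdm1a and Hdac1 read 0.00, 0.07 and -0.08. Of 12 cytoskeletal genes, Clic4 fell and Crocc, which encodes the ciliary rootlet protein, rose by 0.23, while the actin regulators Cdc42, Capzb and Wasf2 read -0.05, -0.13 and 0.05. Of 10 kinases, phosphatases and their inhibitors, Camk2n1 and Pink1, a mitochondrial kinase gene (0.40, adjusted p = 0.0238), were higher and 8 did not pass. Both measured secreted phospholipase A2 genes, Pla2g2d and Pla2g2f, did not pass. Among the smaller of these changes, Pou3f1, Mtf1, Hmgn2, Phc2, Crocc and Pink1 each lost the call without at least 1 array (highest adjusted p 0.056 to 0.134).

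**Figure D5:**
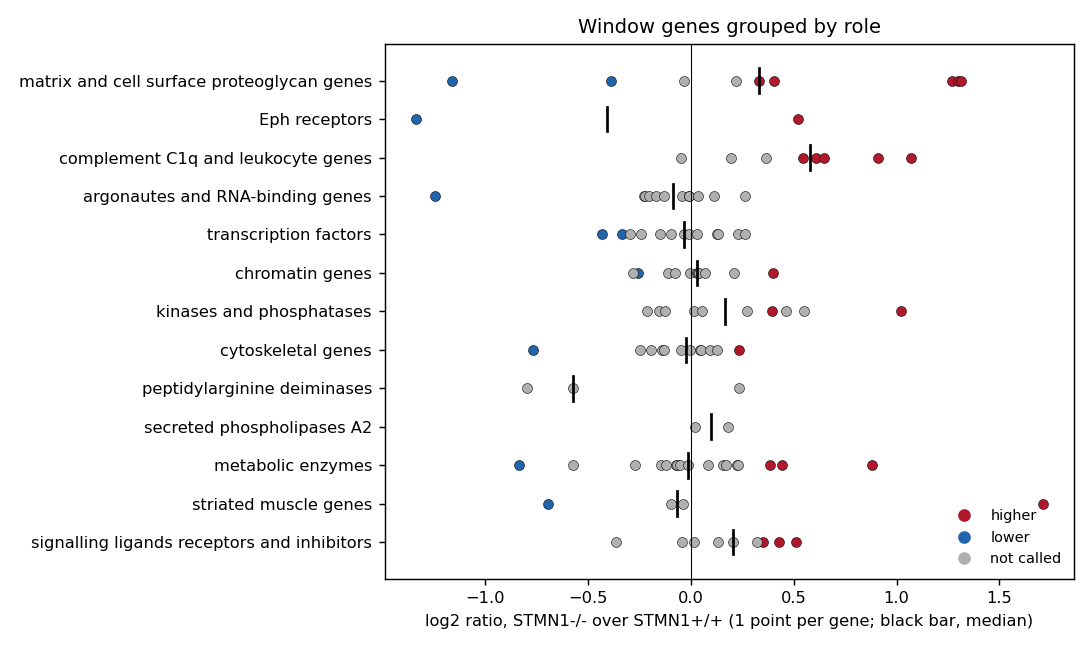
Log2 ratio of STMN1-/- over STMN1+/+ for measured window genes, 1 point per gene at its brightest probe, grouped by role, with genes called higher in red, called lower in blue and not called in grey, and a black bar at each group's median. Matrix genes spread from Tinagl1 at -1.16 to Mfap2 at 1.31, whereas most argonaute and RNA-binding, chromatin and cytoskeletal genes lie close to 0.

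Probes of the same gene gave unequal values in part. The window holds 104 genes with more than 1 tested probe, of which 39 had at least 1 called probe and 10 had all probes called, or 25.6% of the 39, beside 30.6% elsewhere. No window gene had probes called in both directions, as 16 of 6163 genes did elsewhere, and the median range between probes of a gene was 0.16 in the window and 0.15 elsewhere. The widest range was that of Srsf10, which encodes a splicing regulator. Its 4 probes, in chromosome order, read -0.16, -0.57, -0.21 and 0.70, of which only the probe at -0.57 was called (adjusted p = 0.00745). The last of these Srsf10 probes was higher on all arrays, with 0.97 and 1.21 on arrays 1 and 2 and 0.33 and 0.29 on arrays 3 and 4, and missed the threshold (adjusted p = 0.052). Close to Stmn1, the dimmer Pdik1l probe read -0.60, -0.37, -0.61 and -0.67 and was called lower, while the brighter one read -0.01, 0.09, 0.52 and 0.49 and was not called. The dimmer Zfp593 probe read 0.33, 0.21, 0.04 and 0.30, opposite in sign to the called one. Extl1 read 0.88 at a called probe (adjusted p = 0.0131), with no STMN1+/+ signal well above background, and -0.03 at the other. Dhdds, which encodes a subunit of the enzyme that makes dolichol, read 0.55 at a called probe and -0.05 at the brighter one. Nipal3 read -0.99 at a called probe and -0.02 at the brighter one, and Clic4 read -0.77 and -0.12. Whether such probes read different transcripts was not tested. Of 58 tested probes whose coordinates span more than 60 bases, 15.5% were called, beside 26.5% of the 385 with a shorter or equal span. A longer span can come from an exon junction, but exon positions were not analysed. The shares on the plus and minus strand were 23.3% and 26.6%.

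Adjacent genes in the window had the same sign about as often as not. Of 267 pairs of adjacent measured genes, 136 or 50.9% had the same sign, beside 54.1% elsewhere. In 27 pairs both genes were called, 10.1% beside 7.22% elsewhere, and 13 of these 27 had the same sign, 48.1% beside 67.6% elsewhere. These shares are descriptions, with no test. Runs of at least 3 adjacent called genes numbered 7. In the run of Maco1, Rhd and Tmem50a, 333 to 427 kb from the reference position, every gene was higher, with folds of 1.28, 2.30 and 1.16, and 5 runs held both signs. Pafah2, Paqr7 and Aunip surround Stmn1. Pnrc2, a nuclear receptor coactivator gene about 1.4 Mb to the higher side, read -0.61 and is followed by Cnr2 and Fuca1, both higher. Farther out, Pithd1, the elongin gene Eloa and Rpl11 form a run with 0.38, -0.46 and -1.25.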

How the data were processed

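The 4 Agilent 2-color arrays compared STMN1-/- with STMN1+/+ MEFs. Intensity values came from the authors' run of Agilent Feature Extraction (version 9.5.3.1 per the file headers), which subtracted background, normalized dyes within each array and gave dim spots surrogate values, with coordinates of build mm7. The deposited log10 values are the same program's Cy5 over Cy3 ratio. The authors' lists, which hold ratios of the probes they selected, were not used here.

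From the processed signals, log2 ratios were turned by the dye labels. Control and outlier spots were left out, spots of a probe were averaged, and probes that exceeded background well in a channel of any array and had values on at least 2 arrays entered a moderated test of the ratio against 0 (limma 3.58.1, R 4.3.3, two-sided, Benjamini-Hochberg over 27648 probes, threshold 0.05). Of 549 members, 445 were bright enough, 2 of these had too few usable values, 443 were tested and 430 had values on all arrays. The number of arrays limits the precision. Names came from RefSeq (GRCm38.p6, names only) through accession (343 probes), symbol (89) or synonym (41), or from the array file (13), and 63 stayed unnamed; 473 of the named probes lie on chromosome 4 there too. A gene is represented by its brightest tested probe. Named genes are the 12 largest consistent changes each way, the 6 nearest measured genes on each side and up to 4 called members of each of 14 role lists, and all others were chosen after their values were seen. Members and lists were chosen with earlier results of these data known. On simulated data, 0, 36, 88 and 96% of 50 probes each changed 1.2-, 1.5-, 2- and 3-fold among 26607 were recovered. Only these probes were changed there, with independent noise and no dye effect, whereas 22.4% of the real probes were called. The recovered shares therefore do not give the sensitivity of the real test. Some genes and probe sequences that this rule names are not reported here. Alternatives are given in the closing section. Python 3.11.15 with pandas 2.3.3, numpy 2.4.6 and matplotlib 3.10.9 made summaries and figures.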

Additional observations from a re-analysis of the deposited data

Results flagged for a closer look

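In 3 of the 48 named genes measured on 4 arrays, a single array stood apart from the others by Dixon's criterion at 95%, where chance gives about 1 in 20. Trim63 read 0.85 on array 2 and 1.93 to 2.08 on the others. Mtfr1l, which was not called, read -0.13 on array 1 and 0.03 on each of the others. Tcea3 read -0.52 on array 2 and -0.94 to -0.87 on the others.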

How the results depend on the processing

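Of 43 named genes that passed the test, 43 kept their sign under all alternatives that gave a value, 24 kept the call without each array in turn, 21 with normexp and 14 in both. Normexp with loess called 27 window probes higher and 17 lower (9.93% of the window, 7.67% elsewhere; 23 genes higher, 15 lower), and the shares by distance were 17.5, 14.4, 6.67, 5.71 and 8.86% outward, while all 111 window calls kept their sign. Without the filter on dim probes, 36 probes and 27 genes were higher (13.2% beside 9.33%). A dye coefficient gave 96 higher and 90 lower (42.0% beside 38.8%) and 56 genes lower. The methods' t-test after Benjamini-Hochberg gave 40 probes and 30 genes higher with 13.9% elsewhere, and 41, 31 and 14.8% with a coefficient of variation under 50%. Leaving out 1 array, after which dye effects no longer cancel, gave 24 to 32 probes higher, 25 to 30 lower, shares of 11.6 to 13.6% beside 10.2 to 11.6%, and 20 to 27 genes higher and 15 to 21 lower. A fold of at least 2 left 9 and 8 probes (3.84% beside 2.62%) and 9 and 5 genes. A window of 5 Mb to either side held 38 higher and 32 lower calls (27.0%), and 1 of 2 Mb held 21 and 19 (31.0%). The share elsewhere was 22.4% beside each of them. All of chromosome 4 held 189 and 173 (21.8%), where the share was no longer above the 22.4% elsewhere. Signs turned for genes that were not called: Grrp1 (-0.12 to 0.45 without 1 array, below 0 without array 1 or 3), Pdik1l (-0.14 as the median of its probes), Extl1 (-0.18 to 0.058 without 1 array, above 0 without array 2 or 3, and 0.42 as the median) and Mtfr1l (-0.022 to 0.031, above 0 without array 1). The cause was not tested. The log10 ratio column, centring, scaling, the stricter brightness filter, kept outlier spots and averaged dye-swap pairs moved no count of calls by over 1.5 times. Each array carries both genotypes, so that the tested ratio is already a difference within an array, and no replicate number was left to serve as a further block.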
